A study of Rattus norvegicus with 6 samples.

Results

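The 10 genes described here encode regulators of the uterine response to progesterone and of decidualization, the change of uterine stromal cells into the secretory decidual cells that border the placenta. They are Pgr, Esr1, Hand2, Hoxa10, Hoxa11, Foxo1, Cebpb, Nr2f2, Fkbp4 and Fkbp5, taken by name, and the array carried 16 probe sets for them among 31042. Expression was measured in rat metrial gland, the region of the uterine wall behind the placenta, on 3 arrays from pregnant rats held at 10.5% oxygen (hypoxia) and 3 from pregnant rats held at 21% oxygen (ambient). Both groups were kept in their condition over gestation days 6.5 to 13.5 and the tissue was then collected. The labels give no strain or age of the animals and do not say whether an array holds 1 animal or a pool, so p-values measure only the spread between these 6 samples, and that spread may be technical in part.

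Progesterone acts through its nuclear receptor, which waits in the cytoplasm with heat shock protein 90 and co-chaperones until hormone binds, and then moves to DNA. In uterine stroma the receptor works with other transcription factors to stop estrogen-driven growth of the epithelium and to start the decidual program. The rat metrial gland holds decidual stromal cells, natural killer cells, vessels and, later in pregnancy, invading trophoblast. In such a mixed tissue, fewer cells of a type and less RNA per cell cannot be told apart.

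Hand2 was the regulator that differed most between the oxygen conditions, and at its brighter probe set it was 1.55-fold higher in hypoxia. Its dimmer probe set was 1.82-fold higher, but was kept for the test only through its hypoxia values. Fkbp5 was lower in hypoxia at 1 of its 2 probe sets. Hoxa10, Hoxa11 and Cebpb differed little between the groups, with 95% intervals of the difference inside 0.2 log2 units on either side of 0. Pgr, Foxo1, Nr2f2 and Fkbp4 did not pass the threshold, and the single Esr1 probe set was too dim for a firm statement.

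All values are the authors' log2 expression values, on which a difference of 1 is a doubling of signal. The dimmest 40% of probe sets, by mean over the 6 arrays, were not tested, which kept 13 of the 16 regulator probe sets and 9 of the 10 genes. Each difference is hypoxia minus ambient and comes with a standard error (SE) from a limma fit over all 18625 kept probe sets. A probe set passed at a Benjamini-Hochberg adjusted p under 0.05. Of the 13 kept probe sets 3 passed, 2 of them higher and 1 lower in hypoxia, where 5.99% of all kept probe sets passed (4.02% higher, 1.97% lower). The 2 higher ones are both of Hand2, and the dimmer of them had every ambient value under the mean of 5.74 that the filter asked for. Counted once per gene at the kept probe set with the highest mean, 1 of 9 genes passed (Hand2), beside 6.70% of 10546 genes (4.48% higher, 2.23% lower). Of all calls over probe sets, 67.1% were higher in hypoxia, and 55.4% were when the arrays were quantile normalized.

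**Figure D1:**
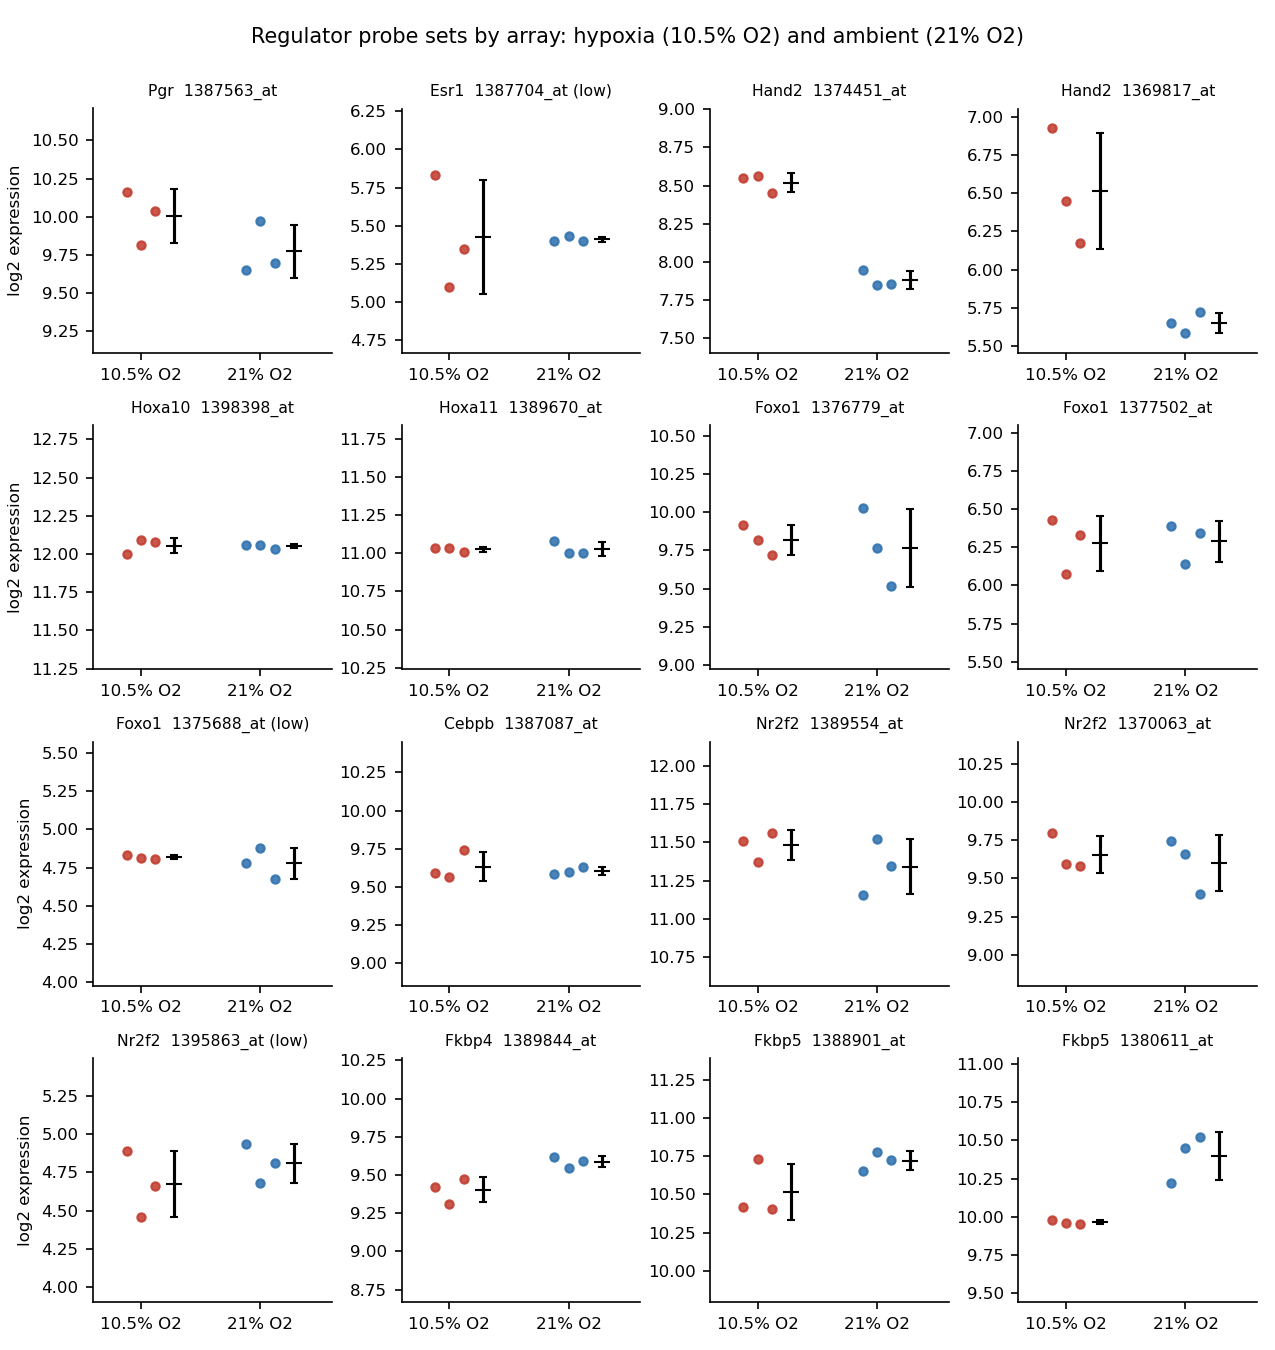
Each panel plots 1 of the 16 probe sets, with log2 expression on the y axis, and every panel spans 1.6 log2 units around its own values. Points are single arrays (left, hypoxia at 10.5% oxygen; right, ambient at 21% oxygen), black bars are mean and SD of 3 arrays, and "(low)" marks the 3 probe sets under the filter. The 2 groups are apart at both Hand2 probe sets, at Fkbp4 and at 1 Fkbp5 probe set, and overlap in the other panels.

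The receptors themselves are Pgr, the progesterone receptor, and Esr1, the estrogen receptor alpha that progesterone action opposes in the uterus. Pgr had 10.16, 9.81 and 10.04 on the hypoxia arrays and 9.65, 9.97 and 9.70 on the ambient arrays. The groups overlapped, since ambient replicate 2 lay above hypoxia replicate 2. The difference was 0.23 (SE 0.11, 95% interval -0.031 to 0.50, limma adjusted p = 0.264). Leaving out each array in turn kept the Pgr difference between 0.15 and 0.33.

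Esr1 had 5.83, 5.10 and 5.35 in hypoxia, against 5.40, 5.43 and 5.40 in ambient. The 3 ambient arrays were nearly equal and the 3 hypoxia arrays lay on both sides of them. For orientation, the highest value of 27 probe sets for bacterial transcripts on any array was 5.003, so Esr1 stood just above this background on all 6 arrays. It fell under the filter, and without the filter the difference was 0.017 (SE 0.16, 95% interval -0.35 to 0.39, limma adjusted p = 0.969; 3.46% of all 31042 probe sets passed in that fit).

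Fkbp4 and Fkbp5 encode FKBP52 and FKBP51, a pair of immunophilin co-chaperones that compete for the receptor complex. In mice Fkbp4 is needed for progesterone receptor activity in the uterus, while Fkbp5, itself induced by progesterone and glucocorticoids, dampens receptor activity. At probe set 1380611_at Fkbp5 had 9.98, 9.96 and 9.95 in hypoxia and 10.22, 10.45 and 10.52 in ambient. The hypoxia arrays were nearly identical and all lay below the lowest ambient array. Fkbp5 fell there by 0.43 on the log2 scale (SE 0.083, 95% interval -0.62 to -0.24, limma adjusted p = 0.0292), to 0.741 times the ambient level. The call was lost without any 1 array other than ambient replicate 1, with adjusted p-values of 0.054 to 0.093, while the difference stayed between -0.52 and -0.37.

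The second Fkbp5 probe set, 1388901_at, had the higher mean and showed a smaller difference. Its values were 10.42, 10.73 and 10.41 in hypoxia, against 10.65, 10.78 and 10.73 in ambient. Hypoxia replicate 2 lay among the ambient arrays, and the other hypoxia arrays lay below them. The difference was -0.20 (SE 0.094, 95% interval -0.42 to 0.013, limma adjusted p = 0.239). The test of whether the 2 probe sets changed unequally, on their difference within each array, gave 0.23 (SE 0.11, adjusted p = 0.345 over the 3838 probe set pairs of all genes, of which 0.339% passed). With the 2 probe sets averaged the Fkbp5 difference was -0.32, with a limma adjusted p of 0.0447.

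Fkbp4 had 9.42, 9.31 and 9.48 in hypoxia and 9.62, 9.55 and 9.59 in ambient. All 3 hypoxia arrays lay below all 3 ambient arrays, as at 4 of the 13 regulator probe sets in one or the other direction and at 29.9% of all kept probe sets (15.8% higher, 14.1% lower). The difference was -0.18 (SE 0.067, 95% interval -0.34 to -0.027) and did not pass (limma adjusted p = 0.152, unadjusted p = 0.0267, a level that 23.7% of kept probe sets reached). To compare the changes of the pair, the log2 value of Fkbp4 was taken from that of Fkbp5 within each array at their highest-mean probe sets, a quantity that is no ratio of transcript amounts. It was 1.11 ± 0.27 in hypoxia and 1.13 ± 0.099 in ambient (SD, n = 3 each). The groups differed in it by -0.021 (exact permutation p = 0.9, two-sided; 3 against 3 arrays cannot go below 0.1). Fkbp5 entered here with 1388901_at, the probe set that did not pass, and the comparison was not made with 1380611_at.

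Hand2 encodes a basic helix-loop-helix factor of uterine stroma that is induced by progesterone and, in mice, lowers stromal fibroblast growth factors and with them estrogen-driven growth of the epithelium. At probe set 1374451_at Hand2 had 8.55, 8.56 and 8.45 in hypoxia, against 7.95, 7.85 and 7.85 in ambient. The groups were far apart, with a gap between them several times the range within either (mean 8.52 ± 0.062 in hypoxia and 7.88 ± 0.057 in ambient, SD, n = 3 each). Hand2 rose there by 0.64 (SE 0.073, 95% interval 0.47 to 0.81, limma adjusted p = 0.00601), which placed it 74th by p among the 18625 kept probe sets. It passed under all 16 alternatives tried, with differences of 0.52 to 0.75 and limma adjusted p-values of 0.0033 to 0.033. The alternative that gave 0.75 averaged this probe set with the dimmer one described below, and is no independent support. Leaving out each array in turn, at this probe set alone, gave differences of 0.62 to 0.67.

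At the dimmer Hand2 probe set, 1369817_at, the values were 6.93, 6.45 and 6.17 in hypoxia and 5.65, 5.59 and 5.72 in ambient. The groups were again apart, but the hypoxia arrays were spread more widely than the ambient ones (SD 0.38 in hypoxia and 0.067 in ambient). Hand2 rose there by 0.86 (SE 0.17, 95% interval 0.46 to 1.27, limma adjusted p = 0.0335). All 3 ambient values lay under the filter's mean of 5.74, so this probe set was tested only because of its hypoxia values and is no independent support for the brighter one. Without the filter its adjusted p was 0.032. It no longer passed when hypoxia replicate 2 or any of the ambient arrays was removed (adjusted p 0.0786 to 0.0992), and an offset of 64 on the linear scale brought the difference down to 0.45. The 2 probe sets differed in their change by -0.23 (SE 0.15, 95% interval -0.57 to 0.11, limma adjusted p = 0.465).

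**Figure D2:**
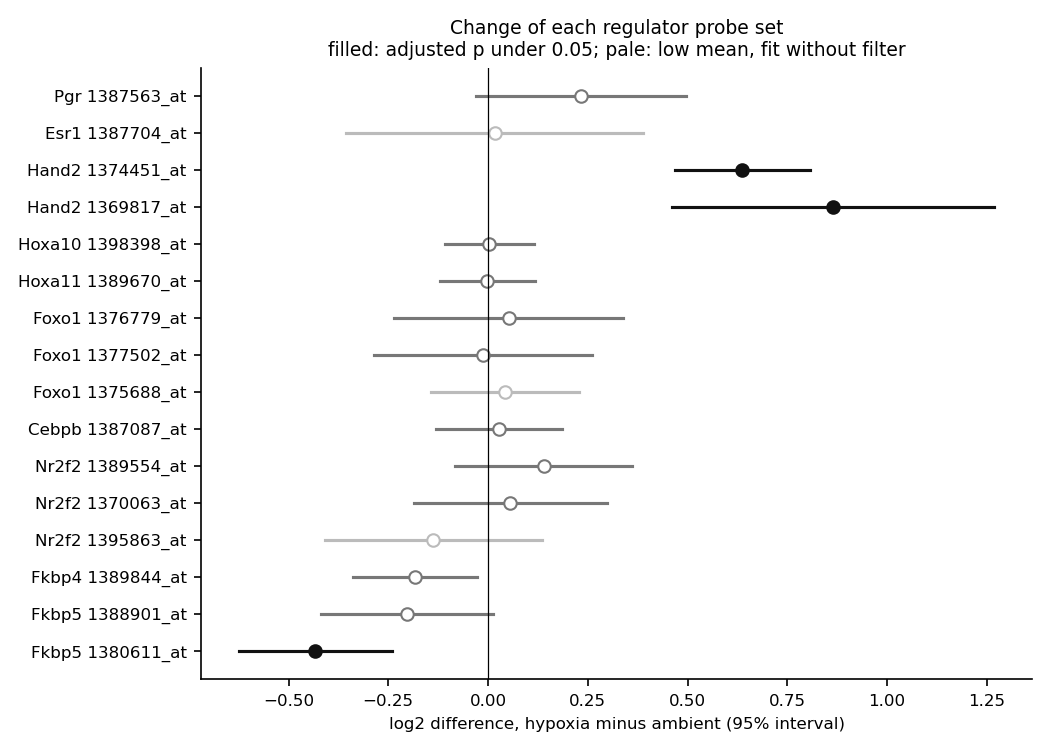
The x axis gives the log2 difference, hypoxia minus ambient, for each of the 16 regulator probe sets, with points for the estimate and lines for the 95% interval of the limma fit. Filled points passed an adjusted p of 0.05 (both Hand2 probe sets, at 0.64 and 0.86, and 1 Fkbp5 probe set, at -0.43), and pale ones had a low mean and come from the fit without the filter.

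Promoters are shown for Hand2 and Fkbp5, the regulators with a called difference, and for Hoxa11, because it shares a short motif with Hand2 and did not pass. Each window runs from 250 bases before to 50 bases after the annotated start, in the RefSeq table of build GRCr8, 5′ to 3′ on the gene's own strand, which is the minus strand for all 3 genes. Capitals mark the core letters of a hypoxia response element, searched as ACGTG and CACGT on both strands, letters that are also part of the CACGTG E-box. The windows lie at chr16:37931439-37931738 for Hand2, chr4:82676752-82677051 for Hoxa11 and chr20:6543506-6543805 for Fkbp5.
Hand2: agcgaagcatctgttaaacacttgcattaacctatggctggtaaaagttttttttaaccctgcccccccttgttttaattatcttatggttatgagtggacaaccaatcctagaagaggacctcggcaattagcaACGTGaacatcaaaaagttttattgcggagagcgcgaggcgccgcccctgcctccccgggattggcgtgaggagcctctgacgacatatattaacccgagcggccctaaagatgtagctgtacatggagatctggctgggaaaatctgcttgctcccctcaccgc
Hoxa11: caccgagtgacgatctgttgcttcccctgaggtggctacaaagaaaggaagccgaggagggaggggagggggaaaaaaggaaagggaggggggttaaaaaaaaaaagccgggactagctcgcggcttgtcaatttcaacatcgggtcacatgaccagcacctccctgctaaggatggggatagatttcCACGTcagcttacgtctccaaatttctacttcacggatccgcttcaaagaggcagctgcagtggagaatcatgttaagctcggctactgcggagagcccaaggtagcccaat
Fkbp5: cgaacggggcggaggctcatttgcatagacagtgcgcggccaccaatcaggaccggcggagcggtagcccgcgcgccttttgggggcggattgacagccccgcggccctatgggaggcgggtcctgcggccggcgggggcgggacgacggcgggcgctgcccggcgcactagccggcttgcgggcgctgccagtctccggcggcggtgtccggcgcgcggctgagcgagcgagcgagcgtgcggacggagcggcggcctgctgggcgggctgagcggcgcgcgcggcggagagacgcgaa
The searched form of the core stood once in the Hand2 window, 115 bases before the start, and once in the Hoxa11 window, 62 bases before it. It was in 19.3% of the 33469 promoter windows of the table, so a match in 2 of the 10 windows found for 9 of the regulators is near that share. The 6-base site bound by progesterone and glucocorticoid receptors, AGAACA or TGTTCT, was in 20.7% of all windows and in 0 of the 10, the pair of such sites 3 bases apart in 0.015% of all and 0 of the 10, and the forkhead motif TGTTTAC or GTAAACA in 3.8% of all and 0 of the 10. These matches describe the letters in 300 bases only.

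Hoxa10 and Hoxa11 are neighbouring homeobox genes that pattern the uterus and are needed in mouse stroma for its response to progesterone and for decidualization. Hoxa10 had 11.997, 12.092 and 12.076 in hypoxia, against 12.059, 12.062 and 12.034 in ambient. Hoxa11 had 11.036, 11.033 and 11.006 in hypoxia, against 11.080, 11.004 and 10.999 in ambient. All 6 arrays of each gene lay within 0.1 log2 units of one another. The differences were 0.0031 for Hoxa10 (SE 0.048, 95% interval -0.11 to 0.11) and -0.0025 for Hoxa11 (SE 0.052, 95% interval -0.12 to 0.12), with limma adjusted p-values of 0.977 and 0.983. The sign of each turned under some settings. The Hoxa10 value minus the Hoxa11 value of the same array was 1.03 ± 0.060 in hypoxia and 1.02 ± 0.041 in ambient (SD, n = 3 each; exact permutation p = 0.8, two-sided). An antisense gene, Hoxa11-as, lies beside Hoxa11, and the gene identifier behind the Hoxa11 probe set was not in the RefSeq table, so that name rests on the platform annotation.

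Foxo1 encodes a forkhead factor that partners the progesterone receptor in decidual cells and turns on target genes such as Igfbp1. Its brightest probe set, 1376779_at, had 9.92, 9.82 and 9.72 in hypoxia and 10.03, 9.76 and 9.52 in ambient. The ambient arrays spanned the whole hypoxia range. The difference was 0.051 (SE 0.12, 95% interval -0.24 to 0.34, limma adjusted p = 0.838). The second, 1377502_at, gave -0.013 (SE 0.12, limma adjusted p = 0.958), and the change of these 2 probe sets did not differ past the threshold (0.065, SE 0.15, adjusted p = 0.84). Another probe set, 1375688_at, lay between 4.67 and 4.88 on all 6 arrays, below the highest bacterial control, and has only a bound.

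Cebpb encodes a leucine zipper factor that is needed in mice for stromal proliferation and decidualization. It had 9.59, 9.56 and 9.74 in hypoxia, against 9.59, 9.60 and 9.63 in ambient. The groups overlapped, with hypoxia replicate 3 the highest array. The difference was 0.028 (SE 0.068, 95% interval -0.13 to 0.19, limma adjusted p = 0.837), and its sign turned with quantile normalization (-0.0055).

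Nr2f2 encodes COUP-TFII, an orphan nuclear receptor of uterine stroma that acts downstream of epithelial Indian hedgehog and upstream of Bmp2 in mice. At 1389554_at it had 11.51, 11.37 and 11.56 in hypoxia, against 11.16, 11.52 and 11.34 in ambient. The groups overlapped, and ambient replicate 1 was the lowest array. The difference was 0.14 (SE 0.097, 95% interval -0.084 to 0.36, limma adjusted p = 0.428). At 1370063_at it was 0.056 (SE 0.10, limma adjusted p = 0.787), and the 2 probe sets did not differ past the threshold in their change (0.083, SE 0.15, adjusted p = 0.786). Another probe set, 1395863_at, lay between 4.46 and 4.94, below the highest bacterial control, and has only a bound (its measured difference was -0.14).

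The kept probe sets of one gene pointed the same way for Hand2, Fkbp5 and Nr2f2 and opposite ways for Foxo1, whose differences were near 0. Over all genes 64.4% of the 3838 pairs of kept probe sets had the same sign.

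**Figure D3:**
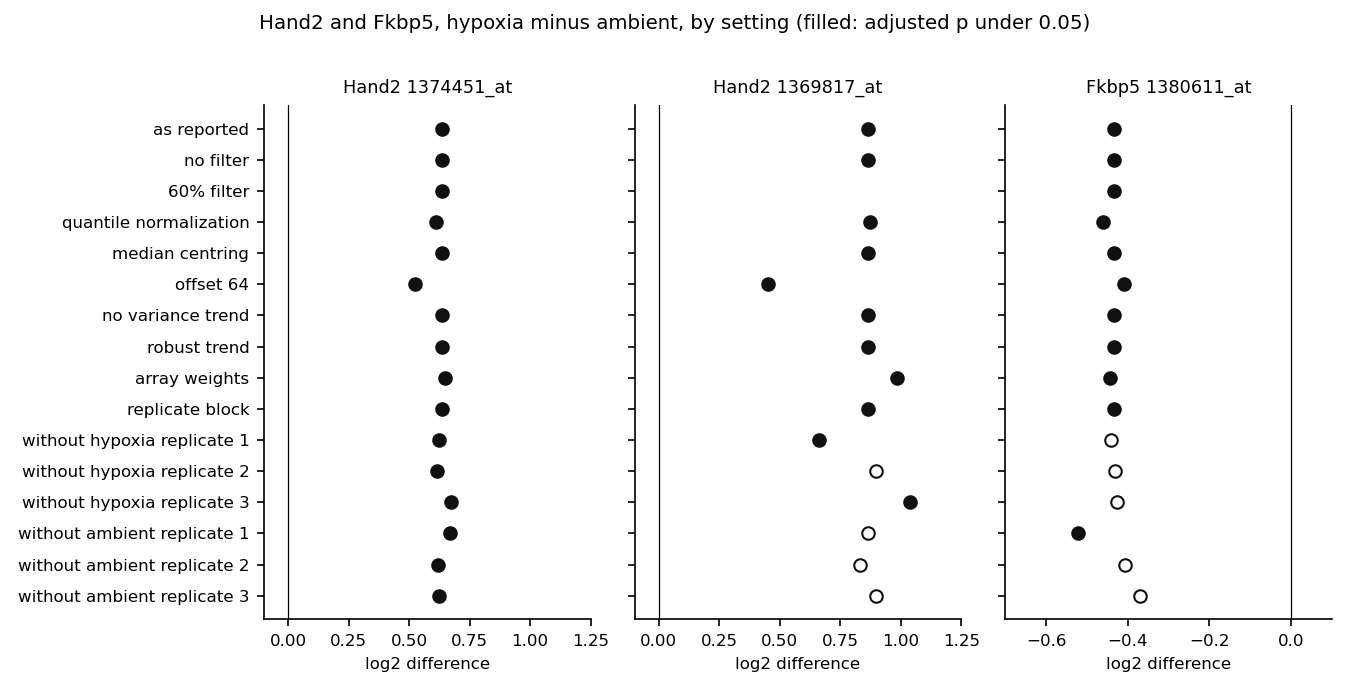
The x axes give the log2 difference, hypoxia minus ambient, of the 3 regulator probe sets that passed, under each setting listed on the y axis. Filled points passed an adjusted p of 0.05. The brighter Hand2 probe set is filled under every setting shown, the dimmer one is open without any 1 ambient array or hypoxia replicate 2, and Fkbp5 is open under 5 of the 6 settings that leave out an array. The dimmer Hand2 probe set has no point under the 60% filter.

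The 3 genes with profiles most like Hand2 over the 6 arrays, by the distance between log2 values centred on each gene's own mean, were Fpgs (0.10), Tp53inp2 (0.12) and Ptprb (0.13). Fpgs encodes the enzyme that adds glutamates to folates, Tp53inp2 a factor in autophagy and Ptprb a phosphatase of endothelium. They were higher by 0.59, 0.66 and 0.63, close to the Hand2 difference of 0.64. The choice by smallest distance on these same arrays brings that closeness with it. Hand1, the nearest relative of Hand2 and a trophoblast factor, had 8.08, 7.34 and 10.10 in hypoxia, against 6.69, 5.36 and 5.24 in ambient at its brighter probe set. Hand1 was highest on hypoxia replicate 3, the array on which both Hand2 probe sets were lowest within their group. The brighter Hand2 probe set spanned only 8.45 to 8.56 in hypoxia, and a relation of the 2 genes was not tested. The Hand1 difference of 2.74 did not pass (limma adjusted p = 0.054, 0.0281 to 0.175 over the alternatives and 0.04995 without hypoxia replicate 2), and its second probe set gave -0.065. Hand1 was taken up after its values were seen.

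Around these regulators, 6 lists held 121 other genes of the pathway, of which 108 were on the array under their own symbol and 91 were measured after the filter. Of the 91, 7 rose, 2 fell and 82 did not pass. That is 9.89%, beside 6.70% of all 10546 genes, and the median difference was 0.0079 for the 91 and 0.0082 for all genes. The counts of each list below are to be read beside the same 6.70% (4.48% higher, 2.23% lower). The hypoxia and ambient arrays did not overlap for 27 of the 91, beside 31.5% of all genes. A further 3 of the 91, Cebpa, Cited2 and Il6st, did not pass at the probe set that stands for them and passed at another, and are counted among the 82.

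Receptors for other steroids and the membrane progesterone receptors had 6 measured members and 0 limma calls, with 1 at an unadjusted p under 0.05. That level was reached by 24.7% of all 10546 genes. Pgrmc2, a membrane-associated progesterone binding protein, was higher by 0.17 (SE 0.052, limma adjusted p = 0.103) and Pgrmc1 by 0.15 (SE 0.073, limma adjusted p = 0.269). The 2 other kept probe sets of Pgrmc2 were at 0.0073 and 0.23 (limma adjusted p of 0.967 and 0.0987). Nr3c1, the glucocorticoid receptor, taken up after its values were seen, had 8.61 ± 0.067 in hypoxia and 8.52 ± 0.14 in ambient (SD, n = 3 each), a difference of 0.089 that did not pass (limma adjusted p = 0.594).

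Chaperones of steroid receptors had 12 measured members, of which 0 rose, 1 fell and 11 did not pass. The one that fell was Hsp90ab1, the constitutive heat shock protein 90 that holds the receptor with Fkbp4 or Fkbp5. It had 12.828, 12.732 and 12.859 in hypoxia and 13.018, 12.999 and 13.158 in ambient. All hypoxia arrays lay below all ambient arrays. The difference was -0.25 (SE 0.06, limma adjusted p = 0.0494) and a second probe set fell by 0.38 on the log2 scale (limma adjusted p = 0.0368). The first call was lost without any 1 array (adjusted p up to 0.145), with no filter (0.0564) and with no variance trend (0.104). The median of the list was -0.046.

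Coregulators had 11 measured members, with 0 rises, 1 fall and 10 that did not pass. Ncoa3, a histone acetyltransferase of the p160 coactivator family, had 7.89, 7.84 and 7.89 in hypoxia and 8.21, 8.41 and 8.22 in ambient. The 2 groups did not overlap. Ncoa3 fell by 0.41 on the log2 scale (SE 0.081, limma adjusted p = 0.0319), a call that was lost without any 1 array (adjusted p up to 0.0903). Its second probe set was at -0.39 with a limma adjusted p of 0.145.

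Other decidual transcription factors had 19 measured members, of which 1 rose, 0 fell and 18 did not pass. Sox17, which in mice acts with the progesterone receptor in uterine epithelium and is also an endothelial factor, had 9.31, 9.33 and 9.39 in hypoxia, against 8.91, 8.70 and 8.91 in ambient. It rose by 0.50 (SE 0.078, limma adjusted p = 0.0152) and passed without any 1 array. At a second probe set it was higher by 0.34 without passing (limma adjusted p = 0.252). Gata2, a progesterone receptor partner named here after its values were seen, was higher by 0.24 and did not pass (limma adjusted p = 0.079). Cebpa, a relative of Cebpb, was at 0.32 without passing (limma adjusted p = 0.086). Of its 4 other probe sets 2 passed, at 0.52 and 0.49, and 2 did not, at 0.092 and 0.0030 (limma adjusted p of 0.569 and 0.989).

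Ligands and receptors of uterine progesterone signalling had 19 measured members, of which 4 rose, 0 fell and 15 did not pass, with a median of 0.14. Il11ra1, the receptor of interleukin 11 that mouse decidua needs, had 8.16, 8.34 and 8.14 in hypoxia, against 7.56, 7.47 and 7.27 in ambient. It rose by 0.78 (SE 0.10, limma adjusted p = 0.00859) and passed without any 1 array. Areg, an epidermal growth factor family ligand induced by progesterone in epithelium, had 7.49, 7.21 and 7.69 in hypoxia, against 6.61, 6.80 and 6.68 in ambient.

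The hypoxia and ambient arrays of Il11ra1 and Areg did not overlap, and Areg rose by 0.77 (SE 0.13, limma adjusted p = 0.0176). Bmp2, a morphogen that drives decidualization in mice, had 6.64, 6.31 and 6.78 in hypoxia and 6.10, 5.55 and 5.37 in ambient. It rose by 0.91 (SE 0.20, limma adjusted p = 0.0412), and without ambient replicate 1 by 1.12. Its ambient mean of 5.67 lay under the filter's mean of 5.74, so Bmp2 was tested only because of its hypoxia values (mean 6.58), and its rise within the 4 is to be read with that (adjusted p 0.0415 without the filter). Fgfr2, a fibroblast growth factor receptor of epithelium, rose by 0.64 (SE 0.10, limma adjusted p = 0.0161). Of its 3 other probe sets 2 also rose, by 0.61 and 0.77, and 1 was at -0.057. The probe set at 0.77 had all 3 ambient values under the filter's mean of 5.74. It was tested only because of its hypoxia values and is no independent support for the Fgfr2 rise.

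Il6st, the shared signalling receptor of the interleukin 6 family to which leukemia inhibitory factor and interleukin 11 belong, is among the 15 by its highest-mean probe set, where the difference was 0.42 (limma adjusted p = 0.086). Its 3 other kept probe sets all passed, with rises of 0.70, 0.56 and 0.65 (limma adjusted p of 0.00471, 0.00601 and 0.00499). Il6st was named after its values were seen.

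The calls of Areg, Bmp2 and Fgfr2 depended on single arrays. Removing any 1 ambient array, or hypoxia replicate 1, brought Areg above the threshold (adjusted p at most 0.0709), and for Bmp2 each array other than ambient replicate 1 had that effect (at most 0.132), as did omitting the variance trend (0.0502). Fgfr2 no longer passed when hypoxia replicate 2 or either of ambient replicates 2 and 3 was removed (at most 0.0691). Fgf1, Fgf2, Fgf9 and Fgf18, the growth factors that Hand2 lowers in mouse stroma, were picked out of this list after the values were seen, and all 4 fell under the filter. Without the filter Fgf9 had means of 5.28 in hypoxia and 5.26 in ambient, and the means of the other 3 lay below the highest bacterial control in both groups.

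Genes induced by progesterone, glucocorticoids or FOXO factors had 25 measured members, with 2 rises, 0 falls and 23 that did not pass, and a median of -0.053. Tgm2, a transglutaminase that links matrix proteins, rose by 0.55 (SE 0.099, limma adjusted p = 0.023) and at a second probe set by 0.58 (limma adjusted p = 0.0221). Sesn1, a stress-induced inhibitor of growth signalling, rose by 0.45 (SE 0.083, limma adjusted p = 0.0256), with 0.21 and no call at its second probe set (limma adjusted p = 0.237). Tgm2 no longer passed at the first probe set when 1 of hypoxia replicates 1 and 2 or of ambient replicates 2 and 3 was removed (adjusted p at most 0.0723). Sesn1 no longer passed when any array but hypoxia replicate 3 was removed (at most 0.0939). Cited2, a transcriptional coregulator, was at 0.38 (limma adjusted p = 0.0539) and passed at a second probe set, at 0.52 (limma adjusted p = 0.0431).

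The widest differences of that list were those of 2 genes, named here because they stood apart. Igfbp1, an insulin-like growth factor binding protein and Foxo1 target, had 7.23, 5.90 and 5.28 in hypoxia, against 8.70, 7.66 and 7.88 in ambient. The difference was -1.94 (SE 0.47) with a limma adjusted p of 0.0525, and the adjusted p ranged from 0.00538 to 0.139 over the alternatives, at 0.0192 without hypoxia replicate 1 (difference -2.49). Prl8a2, the decidual prolactin-related protein of rodents, had 13.659, 11.996 and 14.073 in hypoxia, against 11.783, 11.359 and 11.384 in ambient. The groups were apart for both genes and the hypoxia arrays of each spread over more than 1 log2 unit. The Prl8a2 difference of 1.73 (SE 0.46) had a limma adjusted p of 0.0683, over a range of 0.00321 (without hypoxia replicate 2, difference 2.36) to 0.191, and its second probe set was at 2.24 (0.0668). Probe sets of the prolactin family can bind close paralogs, so the Prl8a2 value is uncertain.

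**Figure D4:**
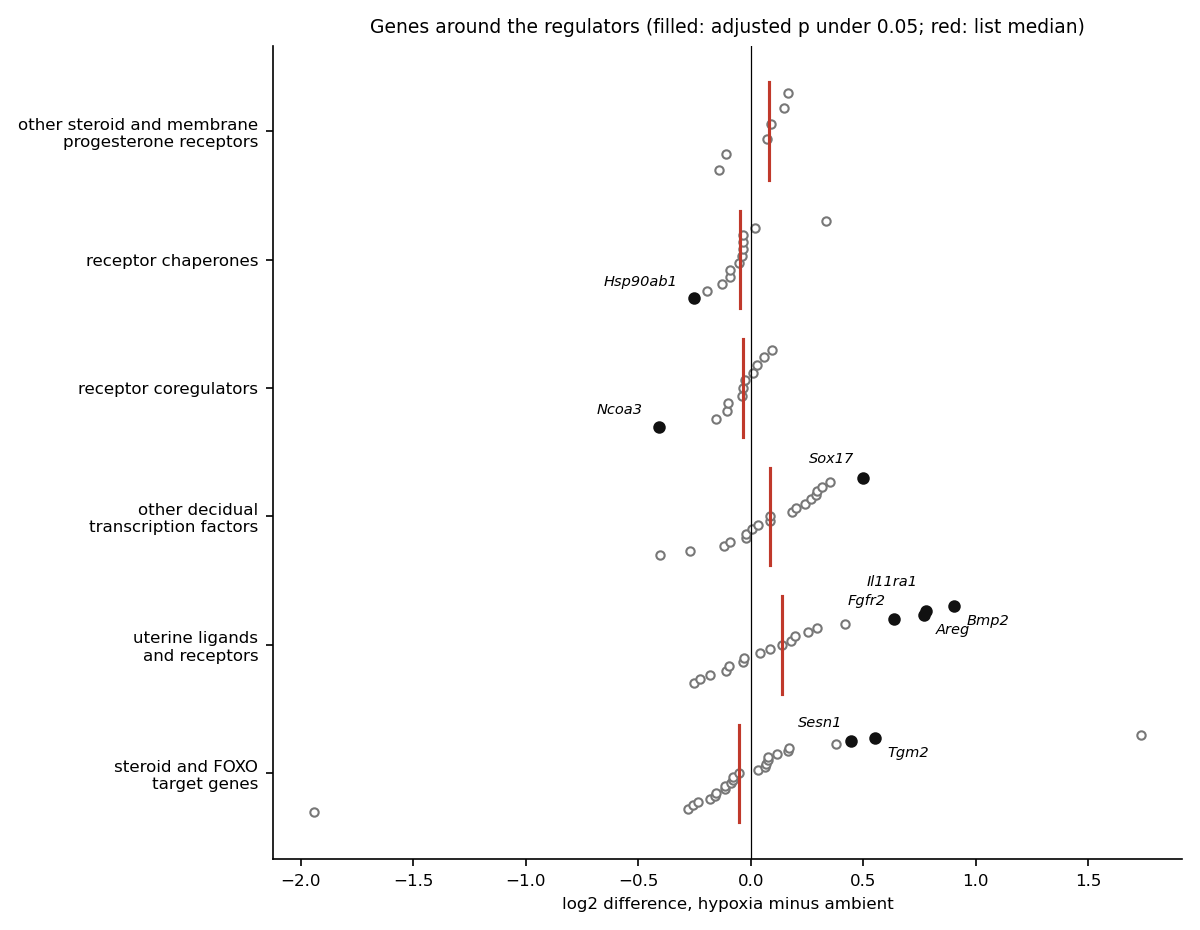
The x axis gives the log2 difference, hypoxia minus ambient, of each measured gene of the 6 lists, with 1 point per gene sorted within its list and a red line at the list's median. The 9 filled and named genes passed an adjusted p of 0.05. The 2 open points farthest out, in the lowest list, are Igfbp1 at -1.94 and Prl8a2 at 1.73.

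Markers of the cell types in the tissue were measured on the same arrays. Summed level here is log2 of the summed linear signal of a list's measured members, so the brightest members weigh most in it. Over all 10546 genes 6.70% passed (4.48% higher, 2.23% lower), the share to set beside the count of each marker list. Uterine stroma, the main known site of Hand2, Hoxa10, Hoxa11 and Nr2f2, had 14 measured markers, of which 1 rose (Mfap5, by 0.58), 0 fell and 13 did not pass, with a summed level of 16.85 to 16.99 in hypoxia and 16.69 to 16.80 in ambient. Without Prl8a2, left out after its values were seen, the summed levels overlapped, at 16.73 to 16.84 in hypoxia and 16.66 to 16.76 in ambient. The median difference of the other 13 was 0.062. Of all 14 markers 12 were above 0 and 2 below. Dimmer ones went both ways without passing, with Adamts5 at 0.69 and Pdgfra at -0.24 (limma adjusted p of 0.0511 and 0.0604). Smooth muscle had 0 limma calls among 12 markers, with 1 at an unadjusted p under 0.05, a level that 24.7% of all genes reached. Its summed level was 14.997 to 15.436 in hypoxia and 15.038 to 15.498 in ambient.

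Marker lists of 4 other cell types held genes that passed, beside the Hand2 and Fkbp5 differences. Of 14 measured trophoblast markers 10 rose and 0 fell, and their summed level was 14.16 to 14.66 in hypoxia and 11.76 to 13.17 in ambient. Prl7a3, a placental prolactin family gene, rose by 3.64 and Plac1, a placental membrane protein, by 2.16, while the trophoblast markers Tpbpa, Gcm1, Peg10 and Psg29 were under the filter and 3 of the 18 listed were at or below the highest bacterial control on all arrays. Of 11 endothelial markers 6 rose and 0 fell, at 13.11 to 13.24 in hypoxia and 12.86 to 12.94 in ambient. Vwf, a clotting factor of endothelium, rose by 1.20 and Tie1, an endothelial receptor kinase, by 0.69. Of 13 natural killer cell markers 0 rose, 4 fell and 9 did not pass, at 15.25 to 15.39 in hypoxia and 15.53 to 15.72 in ambient. Their differences were below 0 for 11 and above 0 for 2, the receptor Klrd1 at 0.52 (limma adjusted p = 0.192) and Gzmm at 0.13. The receptor Ncr1, below 0, was at -0.012. Cst7, a protease inhibitor of killer cells, was at -0.73 (adjusted p 0.0567 without ambient replicate 3) and Nkg7, a granule protein, at -0.46 (0.0518 without hypoxia replicate 1). Of 7 epithelial markers 0 rose and 3 fell, at 9.17 to 9.80 in hypoxia and 9.93 to 10.38 in ambient, and 3 more of that list were at or below the highest bacterial control on all arrays. Epcam, an epithelial adhesion molecule, was at -1.77 (limma adjusted p = 0.0381, up to 0.124 without 1 array) and Spint1, an epithelial protease inhibitor tested only because of its ambient values, at -0.57. The part of these cell types in the Hand2, Fkbp5 and pathway differences was not tested. Control probe sets at both ends of the beta-actin transcript, read as a gauge of RNA intactness, gave a 3′ minus 5′ log2 difference of 0.67 ± 0.097 in hypoxia and 0.50 ± 0.073 in ambient (SD, n = 3 each; exact permutation p = 0.1, two-sided, the smallest possible). The same quantity for GAPDH was 0.0039 ± 0.049 in hypoxia and -0.033 ± 0.022 in ambient, with overlapping groups (exact permutation p = 0.2, two-sided). The part of RNA intactness in the results was not tested.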

How the data were processed

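Total RNA of metrial gland from 6 samples of pregnant rats was hybridised as biotin-labelled cRNA to single-channel Affymetrix rat arrays, per the labels' protocols. The deposited values are log2 expression, 1 per probe set and array, a scale read from the values (2.98 to 14.9). MAS5 and Affymetrix Expression Console are named, with no role, per the submitters' processing notes. For background correction, summarization and scaling the method is not given in the sources used here. Array medians of 6.44 to 6.47 show that the authors' values were already on a common scale, which can hide a change of most genes at once.

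Of 31099 probe sets, 57 controls and the 12417 with a mean below 5.74 were left out. Genes were named from the platform annotation, where 20826 probe sets had 1 symbol, 436 several and 9780 none, and 20758 of the 20826 were found in RefSeq (GRCr8). Promoters for 9 of the 10 regulators came from the RefSeq table. Groups were compared in R 4.3.3 with limma 3.58.1 (lmFit, eBayes with a mean-variance trend), two-sided, without further normalization. The fit was tested on simulated data. Pairs of probe sets of a gene were compared in a limma fit on their within-array difference. There is no read depth here, so the number of arrays sets the precision. Correlations between arrays of a group were 0.989 to 0.993, and no 2 arrays held identical values.

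The regulators, the gene lists and the tests were chosen with earlier results of these data known. From each pathway list up to 4 genes past the threshold were named by smallest p, or 2 where none passed, and from marker lists up to 2; genes named otherwise are said to be. For a gene with several probe sets, the kept one with the highest mean stood for it. Alternatives were no filter, a 60% filter, quantile normalization, median centring, an offset of 64, no or a robust variance trend, array weights, the replicate number as a block, the mean of a gene's probe sets and leaving out each array.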

Additional observations from a re-analysis of the deposited data

How the results depend on the processing

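The number of arrays limits these counts. Leaving out 1 array at a time, the 1116 probe sets called in all became 267 to 1029, the 3 called regulator probe sets 1 to 2, the 9 called pathway genes 2 to 10 and the 13 called probe set pairs 5 to 16. The regulator count was 1 without hypoxia replicate 2 or either of ambient replicates 2 and 3, and the pathway count was 2 without either of those ambient arrays, 4 without hypoxia replicate 1 and 5 without hypoxia replicate 2. Fkbp5 minus Fkbp4 lay between -0.17 and 0.071 and Hoxa10 minus Hoxa11 between -0.017 and 0.040. The brighter Hand2 probe set kept its call in each case. Of the other settings, no filter gave 52 called pairs. Same-numbered arrays correlated in their deviations from group means by 0.012, 0.071 and 0.070, and arrays of unlike number by -0.14 to 0.081. By this measure 3 of 6 arrays were closest to their own number. These values do not decide whether the numbers pair the arrays. With the replicate block 14 pathway genes and 27 pairs were called, and 3 regulator probe sets as before.

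Signs turned for regulators near 0. With quantile normalization Cebpb was at -0.0055 and Hoxa10 at -0.018, and with array weights Hoxa10 was at -0.016, Hoxa11 at 0.0059 and Foxo1 1377502_at at 0.071. Without single arrays the differences ran from -0.045 to 0.13 for Nr2f2 1370063_at, from -0.010 to 0.091, -0.075 to 0.18 and -0.090 to 0.087 for the 3 Foxo1 probe sets, from -0.026 to 0.063 for Cebpb, from -0.19 to 0.18 for Esr1, from -0.017 to 0.024 for Hoxa11 and from -0.015 to 0.032 for Hoxa10. The cause was not tested.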
